A study of Mus musculus with 8 samples.

Results

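The leucine-rich glioma-inactivated (LGI) proteins Lgi1, Lgi2, Lgi3 and Lgi4 and their receptors Adam11, Adam22 and Adam23 were followed in the retinas of aged mice. These 7 genes, of 22911 with a name on the array, were chosen by the signals of Lgi3 on these arrays, where 2 probes of that name moved in opposite directions between the genotypes. The values of Lgi3, and the calls that led to its choice, are therefore given as a description that supports nothing, while the other 6 genes entered through their family and not through their values. The genes were represented by 11 probes, of which 10 carry a transcript accession of the gene and 1, for Lgi3, is named only in the study's list of changed probes. Whole retinas came from mice labelled homozygous Mrp4 knockout (Mrp4-null) or wild-type (WT), all aged 46 to 55 weeks, with 4 samples of each genotype and 1 one-color Cy3 array for each sample. The knockout line was kept on a C57BL/6J background. The methods name tissue from 3 mice, and it is not clear from them whether a sample pooled several animals, so the p-values measure the spread between these samples.

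LGI proteins are secreted neuronal and glial proteins built from leucine-rich repeats and a propeller of epitempin (EPTP) repeats. They bind ADAM22, ADAM23 and ADAM11, members of the ADAM family of membrane proteins that lack protease activity and serve as adhesion receptors. The LGI1 and ADAM22 complex holds the scaffold PSD-95 and AMPA receptors at excitatory synapses, and mutations of LGI1 cause a familial lateral temporal lobe epilepsy. LGI proteins with ADAM23 or ADAM22 are also found with Kv1 potassium channels along axons. LGI4, which Schwann cells secrete and which binds ADAM22 on axons, is needed for peripheral myelin, and LGI3 is expressed in neurons and oligodendrocytes. Because the tissue was whole retina, fewer cells of a type and less RNA per cell cannot be told apart in any value given here.

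Under the Mrp4-null label, Abcc4, which encodes MRP4, was at 10.75 ± 0.09 (SD, n = 4) in normalized log2 signal, against 6.83 ± 0.29 (SD, n = 4) in WT. The label of the knockout thus goes with more signal of its own target, and directions below are those of the labels. Whether its probe lies in the deleted part of the gene is not stated. The 8 arrays shared 1 slide, on which one row carried the Mrp4-null label and the other WT, and row and genotype cannot be told apart. The 75th percentile of the signal over all probes ranged from 497 to 786, and the second array labelled Mrp4-null and the third WT array were the dimmest. Xist was detected well above background on 4 arrays labelled Mrp4-null and 2 WT arrays, and a Y-linked probe on 0 and 3. The second WT array had Xist and Y-linked probes above background together, and whether that sample held RNA of both sexes was not tested. Sex is thus largely confounded with genotype, and its part in the differences below was not tested. All 8 listed rod genes, all 6 bipolar cell genes and all 7 ganglion cell genes were well above background on every array, as retina should give. Limma called 202 of 37085 retained probes changed (0.545%), 95 higher (0.256%) and 107 lower (0.289%), where a call needs a fold change of at least 1.5 and a Benjamini-Hochberg adjusted p under 0.05.

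Lgi3 had 1 probe that was higher and 1 that was lower under the Mrp4-null label. The transcript probe, A_51_P356967, carries the RefSeq accession NM_145219 of Lgi3. Its processed signal, the background-subtracted intensity before any scaling between arrays, was 626, 594, 763 and 542 on arrays 1 to 4 labelled Mrp4-null. On WT arrays 1 to 4 the transcript probe read 387, 362, 271 and 251. The lowest array labelled Mrp4-null lay above the highest WT array, and the dim arrays did not break this order. The mean was 631 ± 94.4 (SD, n = 4) against 318 ± 67.1 (SD, n = 4).

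The cDNA probe, A_55_P2737912, went the other way by more. It carries the accession AK163664 of a cDNA clone. Its processed signal was 74.7, 58.5, 68.4 and 58.6 on arrays 1 to 4 labelled Mrp4-null. On WT arrays 1 to 4 the cDNA probe read 325, 302, 244 and 260.1. Every WT array was above every array labelled Mrp4-null by a wide margin, with means of 283 ± 37.2 (SD, n = 4) and 65.1 ± 7.93 (SD, n = 4). The first WT array, which like the arrays labelled Mrp4-null had Xist and no Y-linked probe above background, had the highest processed signal of the WT arrays for both probes, and after normalization it was at 8.48 and 8.22, against 8.21 to 8.40 and 8.02 to 8.26 on the other WT arrays.

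**Figure D1:**
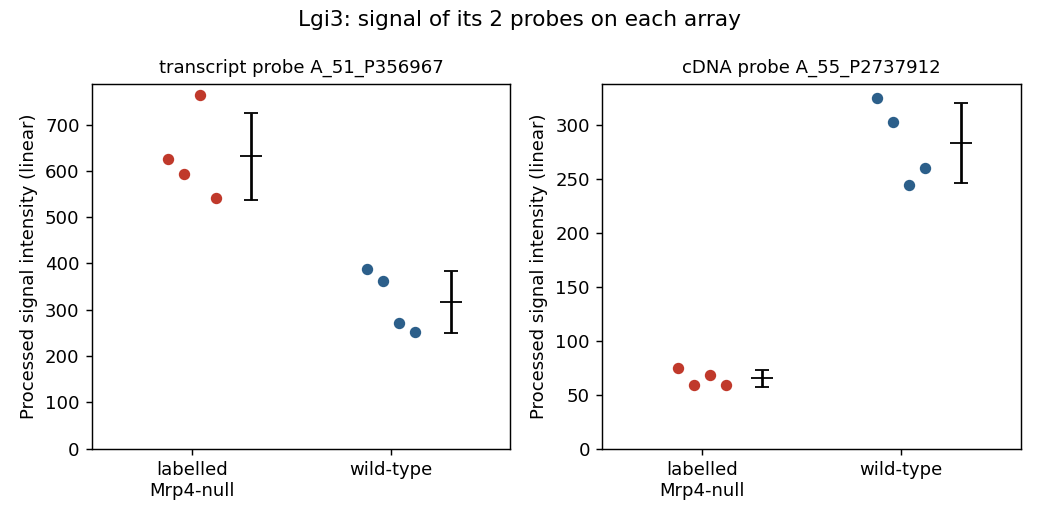
Processed signal intensity (linear, from 0) of the Lgi3 transcript probe (left) and the Lgi3 cDNA probe (right), 1 point per array, with the mean and SD of each genotype beside the points. The arrays labelled Mrp4-null sit at 542 to 763 against 251 to 387 on the left and at 58.5 to 74.7 against 244 to 325 on the right, so the order of the genotypes is turned between the probes.

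After quantile normalization, the transcript probe of Lgi3 had a mean log2 signal of 9.25 ± 0.31 (SD, n = 4) under the Mrp4-null label and of 8.34 ± 0.12 (SD, n = 4) in WT, a 1.88-fold difference (log2 fold change 0.91, standard error 0.15). The cDNA probe had means of 5.95 ± 0.16 (SD, n = 4) and 8.19 ± 0.11 (SD, n = 4), a 4.70-fold difference (log2 fold change -2.23, standard error 0.10). With normexp in place of the scanner's background correction, the log2 fold change of the cDNA probe was -1.5003, which makes the fold smaller by over 1.5 times. By the size of the change, the cDNA probe stood at place 36 and the transcript probe at place 271 among the 37085 retained probes. Among the 11 probes, limma called these 2 changed, 1 in each direction, against 0.545% of all retained probes (0.256% higher and 0.289% lower). Without the fold threshold limma called 0.601% of all retained probes, and the local pooled error test, which pools variances over probes of like signal, called 0.623%. Nothing follows from this count, because these calls led to the choice of the genes. As a limit, the call on the transcript probe held in 8 of the 18 alternatives set out at the start that kept the fold threshold. It was kept when that threshold was dropped, and was also lost without both of the dimmest arrays, which was tried later. Among the 8 of the 18 that each left out 1 array it held only without the fourth array labelled Mrp4-null. In those 8 fits its log2 fold change stayed between 0.80 and 1.02, the lowest being without array 2 of the Mrp4-null label.

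The 2 probes do not rest on the same evidence for their name. The gene table, which lists RefSeq transcripts, has no entry for the accession of the cDNA probe, so whether it matches an exon, an intron or the other strand of Lgi3 was not checked. The longer of the study's lists names the cDNA probe with the gene ID of Lgi3 and leaves its accession blank. In the shorter list the cDNA probe stands beside an accession that the gene table gives to 4930480K23Rik, a noncoding RNA gene that also lies on chromosome 14. That gene was looked at after its values had been seen. Its retained probe, A_55_P2003614, was at 34.1 to 67.8 on the arrays labelled Mrp4-null and at 362 to 721 on the WT arrays, a log2 fold change of -3.44. Its other probe, A_52_P1163494, was well above background on 1 array of each genotype and was not tested.

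The remaining ligands and the receptors differed little between the genotypes. Of the 9 probes of the 6 genes other than Lgi3, limma called 0 changed, against 0.545% of all retained probes, and the local pooled error test also called 0, against 0.623%. An unadjusted p under 0.05 was found for 1 of the 9, where it was found for 6.46% of all retained probes. Their median log2 fold change was -0.05, against -0.0093 over all retained probes, and 4 of the 9 were above 0. All 11 probes were well above background on all 8 arrays, so no value rests on a bound. Each of these probes was spotted once per array.

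**Figure D2:**
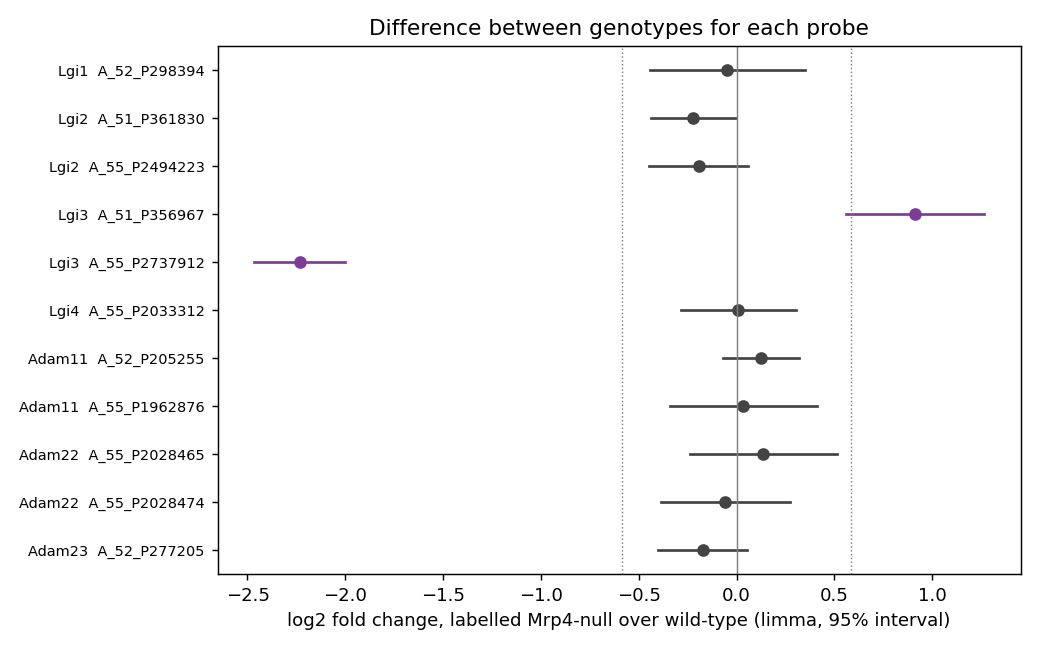
Log2 fold change (labelled Mrp4-null over WT) of each of the 11 probes, with limma's 95% interval. Dotted lines mark the 1.5-fold change. The Lgi3 probes lie at 0.91 and -2.23, and the other 9 lie between -0.22 and 0.14.

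Lgi1, the secreted ligand of ADAM22 and ADAM23 at excitatory synapses, was measured by 1 probe. Its processed signal was 83.6, 45.6, 65.3 and 84.7 on arrays 1 to 4 labelled Mrp4-null and 60.6, 89.9, 50.3 and 60.4 on WT arrays 1 to 4. The ranges lay over each other, and the second array labelled Mrp4-null and the third WT array were the lowest of their genotypes. After normalization the difference was -0.05 on the log2 scale (95% interval -0.44 to 0.35, adjusted p = 1.00 from limma). The interval does not reach a 1.5-fold change in either direction.

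Lgi2, a paralog known from a remitting epilepsy of young dogs, was measured by 2 probes of the same transcript. For probe A_51_P361830 the processed signal was 205, 149, 184 and 196 on arrays 1 to 4 labelled Mrp4-null and 212, 225, 191 and 165 on WT arrays 1 to 4, which overlapped. After normalization the same probe read 7.49, 7.53, 7.31 and 7.50 against 7.60, 7.61, 7.88 and 7.61. The normalized values of the genotypes did not overlap, as was true of 4.79% of all retained probes. The difference was -0.22 (standard error 0.10, 95% interval -0.44 to -0.0049), with an unadjusted p of 0.0460 and an adjusted p of 0.755 from limma, so it did not pass the test. Its second probe, A_55_P2494223, had a difference of -0.19 (95% interval -0.45 to 0.06, adjusted p = 0.945 from limma), with ranges of 7.43 to 7.85 and 7.65 to 7.95 that overlapped. Both probes of Lgi2 were lower on average under the Mrp4-null label in every alternative that was run.

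Lgi4, the ligand known from myelinating glia, was measured by 1 probe. Its processed signal was 1098, 759, 1457 and 1050.1 on arrays 1 to 4 labelled Mrp4-null and 1212, 1251, 815 and 822 on WT arrays 1 to 4. The third array labelled Mrp4-null was the highest of all and the second was the lowest. The normalized means, 10.02 ± 0.24 (SD, n = 4) and 10.01 ± 0.11 (SD, n = 4), differed by 0.0084 (95% interval -0.28 to 0.30, adjusted p = 1.00 from limma). The sign of so small a difference changed with the shift to the 75th percentile and with the normexp correction.

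Among the receptors, Adam22, which anchors LGI1 at the postsynaptic membrane, was measured by probes of 2 of its transcripts. Probe A_55_P2028474 had a processed signal of 2147, 955, 1729 and 2264 on arrays 1 to 4 labelled Mrp4-null and 1971, 2221, 1170.2 and 1547 on WT arrays 1 to 4. The second array labelled Mrp4-null was the lowest, and the other ranges lay over each other. The normalized difference of this probe was -0.06 (95% interval -0.39 to 0.27, adjusted p = 1.00 from limma). Probe A_55_P2028465 gave weak signals of 33.0 to 43.2 on the arrays labelled Mrp4-null and 23.4 to 36.2 on the WT arrays, and a normalized difference of 0.14 (95% interval -0.24 to 0.51, adjusted p = 1.00 from limma). Its second array labelled Mrp4-null was at 5.65 on the log2 scale and the other 3 at 4.90 to 4.98, and without that array the difference was -0.04.

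Adam23, a receptor of LGI1 on the presynaptic side and on axons, was measured by 1 probe. Its processed signal was 506, 323, 441 and 502 on arrays 1 to 4 labelled Mrp4-null and 468, 596, 348 and 467 on WT arrays 1 to 4. The third WT array and the second array labelled Mrp4-null were again the lowest. The normalized means were 8.72 ± 0.10 (SD, n = 4) and 8.89 ± 0.16 (SD, n = 4), a difference of -0.17 (95% interval -0.40 to 0.06, adjusted p = 0.945 from limma). The direction was the same in every alternative, but no alternative called it.

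Adam11, the third receptor, known from cerebellar and peripheral synapses, was measured by probes of 2 transcripts. Probe A_52_P205255 had a processed signal of 822, 474, 678 and 652 on arrays 1 to 4 labelled Mrp4-null and 659, 701, 428 and 477 on WT arrays 1 to 4. These ranges overlapped, and the normalized difference was 0.12 (95% interval -0.07 to 0.32, adjusted p = 1.00 from limma). Probe A_55_P1962876 had processed signals of 174 to 215 under the Mrp4-null label and 150.1 to 206 in WT, and a normalized difference of 0.03 (95% interval -0.34 to 0.41, adjusted p = 1.00 from limma). Without the second array labelled Mrp4-null the difference of the latter probe was -0.13.

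**Figure D3:**
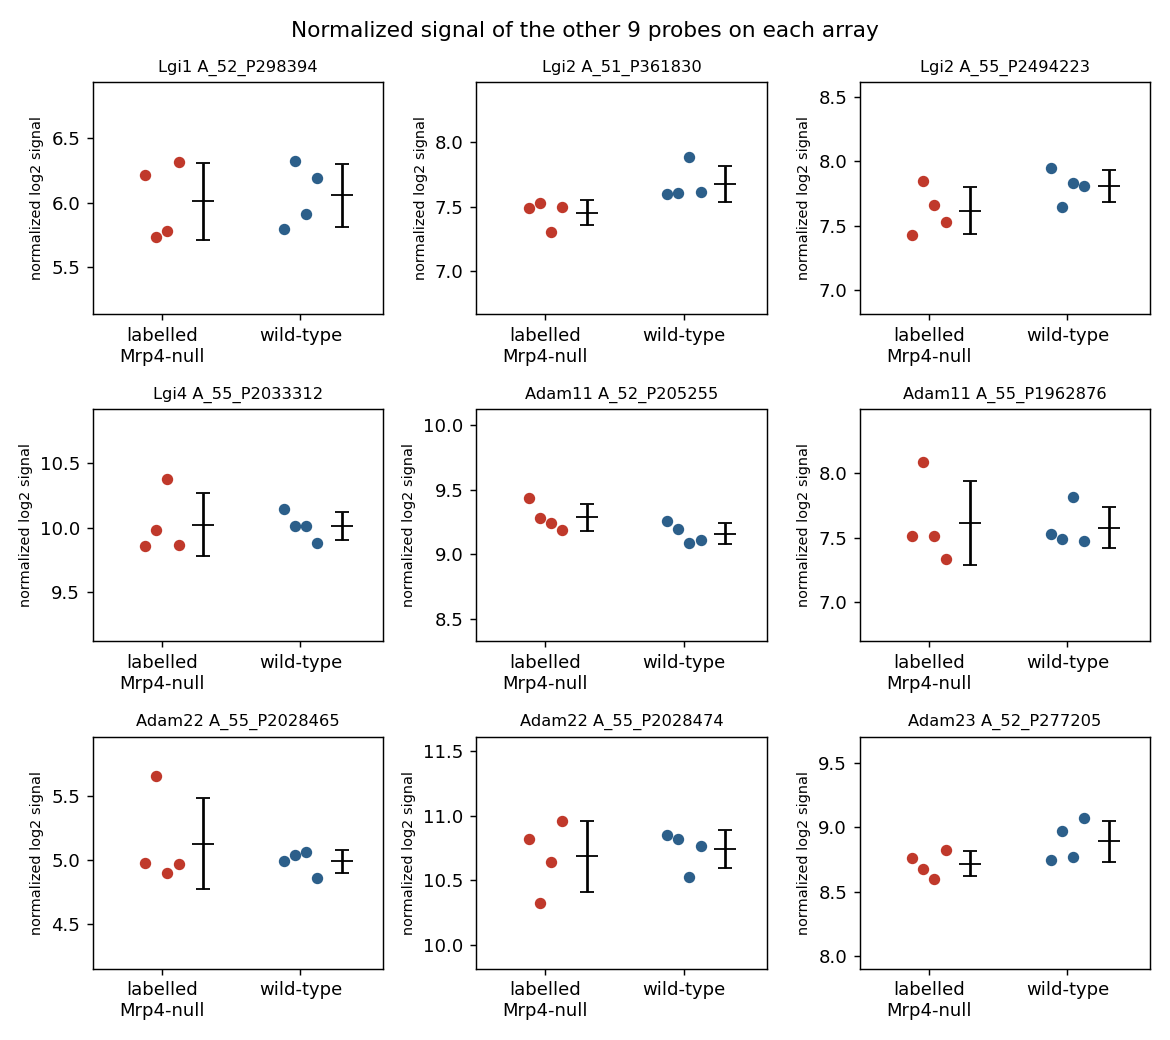
Normalized log2 signal of the 9 probes of the 6 genes other than Lgi3, 1 point per array, with the mean and SD of each genotype. Every panel spans the same height on the log2 scale. The genotypes overlap in 8 panels, and in Lgi2 A_51_P361830 they lie at 7.31 to 7.53 and 7.60 to 7.88.

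Genes of known LGI and ADAM22 or ADAM23 biology were followed through a list of 32, all of which had a retained probe. Tspear and Adgrv1 were listed only because they share the EPTP repeats with the LGI proteins. Of the 55 probes, limma called 0 higher and 0 lower and the local pooled error test called 0, where 0.545% and 0.623% of all retained probes were called. An unadjusted p under 0.05 was found for 2 of the 55, against 6.46% of all retained probes. The median log2 fold change was -0.01, and 27 of the 55 were above 0. The scaffolds Dlg1 to Dlg4, of which Dlg4 encodes PSD-95, had 10 probes between -0.16 and 0.08. The AMPA receptor subunits Gria1 to Gria4 had 8 probes between -0.06 and 0.24, and the auxiliary subunits Cacng2, Cacng3, Cacng4 and Cacng8 had 4 probes between -0.01 and 0.08. The largest rise of the list, that of Gria1, was 0.24 (standard error 0.10, adjusted p = 0.707 from limma).

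The Kv1 channel genes Kcna1, Kcna2, Kcna4, Kcnab1, Kcnab2 and Kcnab3 had 7 probes, all below 0, between -0.62 and -0.02. Of all 37085 retained probes, 17339 were above 0, and the shared direction of the Kv1 probes was not tested. The lowest was a probe of Kcnab2, a cytoplasmic beta subunit of these channels, at 6.88 ± 0.49 (SD, n = 4) under the Mrp4-null label and 7.50 ± 0.50 (SD, n = 4) in WT. Its difference of -0.62 (standard error 0.30, adjusted p = 0.855 from limma) was the largest fall of the list and did not pass the test. Rtn4r, the Nogo receptor to which LGI1 also binds, had means of 6.40 ± 0.11 (SD, n = 4) under the Mrp4-null label and 6.71 ± 0.10 (SD, n = 4) in WT, a difference of -0.31 (adjusted p = 0.372 from limma). Its arrays did not overlap between the genotypes, nor did those of Kcna1, with a difference of -0.12 (adjusted p = 0.949 from limma). These were 2 of the 55 probes, against 4.79% of all retained probes. Contactins and their associated proteins had 8 probes between -0.32 and 0.10, and neurexins had 8 between -0.14 and 0.18.

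The ADAM proteases that do cleave proteins, with Adamts1 and Bace1, formed a second list of 11 genes, all with a retained probe. Of their 15 probes limma and the local pooled error test each called 0 changed, against 0.545% and 0.623% of all retained probes, and 1 had an unadjusted p under 0.05, against 6.46%. The median log2 fold change was 0.06. The largest rise was that of Adam8, 0.25 (standard error 0.08, adjusted p = 0.540 from limma), and the largest fall that of Adam28, -0.33 (standard error 0.17, adjusted p = 0.889 from limma).

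**Figure D4:**
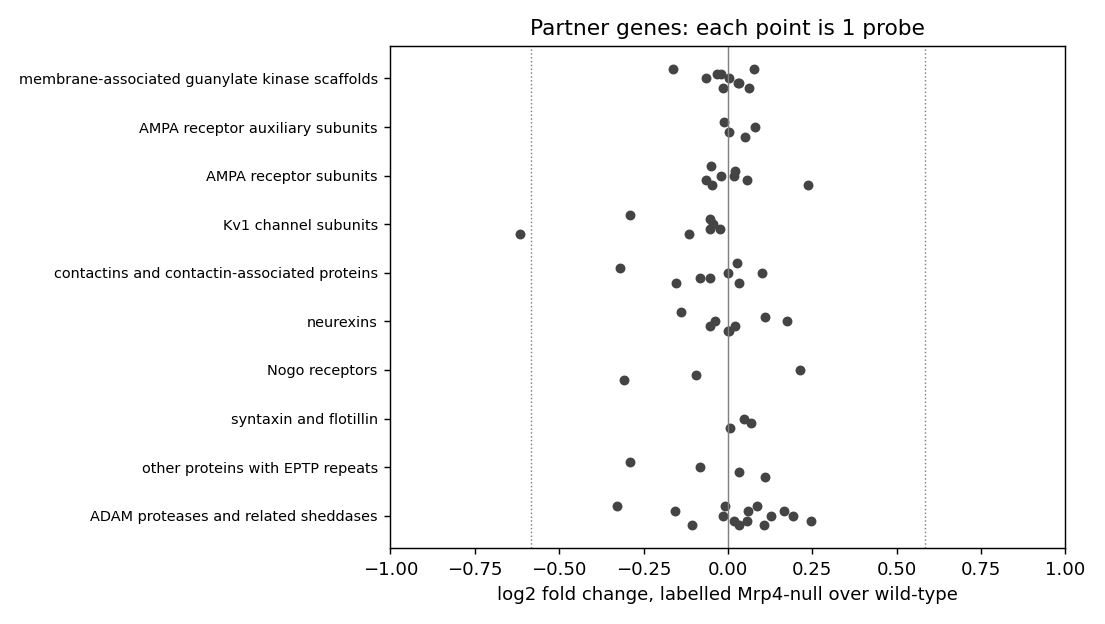
Log2 fold change (labelled Mrp4-null over WT) of every retained probe of the partner genes, in rows by kind of protein, and of the ADAM proteases and related sheddases. Dotted lines mark the 1.5-fold change, which 1 probe, that of Kcnab2 at -0.62, passed.

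Position was not itself used to choose the genes. Lgi3 was chosen by its change, however, and called probes were frequent on a few chromosomes. The values of chromosome 14 and of the genes beside Lgi3 are therefore not independent of that choice. Lgi3 lies on chromosome 14, as does Abcc4, and the other 6 genes lie on chromosomes 1, 5, 7, 11 and 19. Of the retained probes named for genes of chromosome 14, limma called 25 of 823 changed (3.04%), 11 higher and 14 lower. Without the Lgi3 probes, whose values chose the genes, it called 23 of 821 (2.80%), Abcc4 among them. On chromosomes 1, 5, 7, 11 and 19 the share was between 0.00% and 0.411%. A high share was not particular to chromosome 14, since limma called 40 of 1197 probes on chromosome 8 (3.34%) and 28 of 1552 on chromosome 4 (1.80%), where no member lies. The 3 nearest genes with a retained probe on each side of every member were then read from the gene order of GRCm38.p6. No coordinates are given, because the array design is annotated on mm9.

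Next to Lgi3 these genes were Polr3d, Phyhip and Bmp1 on one side and Reep4, Hr and Nudt18 on the other. Limma called both probes of Polr3d, a subunit of RNA polymerase III, higher on the arrays labelled Mrp4-null. They were at 9.26 ± 0.13 (SD, n = 4) against 8.30 ± 0.24 (SD, n = 4) and at 10.04 ± 0.11 (SD, n = 4) against 9.19 ± 0.13 (SD, n = 4). The differences were 0.96 (standard error 0.13, adjusted p = 0.0148 from limma) and 0.85 (standard error 0.09, adjusted p = 0.00549 from limma). Neither probe was called in a fit with a block for the sample number.

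The 3 genes on the other side of Lgi3 were also higher on every array labelled Mrp4-null than on any WT array, though none was called. Reep4, an endoplasmic reticulum shaping protein, differed by 0.44 (adjusted p = 0.203 from limma), Hr, the hairless corepressor, by 0.43 (adjusted p = 0.0649 from limma) and Nudt18, a nucleotide hydrolase, by 0.30 (adjusted p = 0.185 from limma). Phyhip had a difference of -0.06, and the 3 probes of the protease gene Bmp1 had 0.03 to 0.19. The arrays of the genotypes thus did not overlap for 5 of the 9 probes beside Lgi3, each higher, against 4.79% of all retained probes.

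Around the other 6 genes, limma called 0 of 50 probes of 36 neighbouring genes changed and the local pooled error test called 1, against 0.545% and 0.623% of all retained probes. An unadjusted p under 0.05 was found for 3, against 6.46%, and the genotypes were apart for 1, against 4.79%. That probe belongs to Sod3, an extracellular superoxide dismutase beside Lgi2, with a difference of 0.79 (standard error 0.18, adjusted p = 0.185 from limma). Over all 7 members, the local pooled error test called 3 of the 59 neighbouring probes, against 0.623% of all retained probes. The number of neighbouring probes that limma called dropped from 2 to 1 without the first or the third array labelled Mrp4-null and without the first or the fourth WT array.

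**Figure D5:**
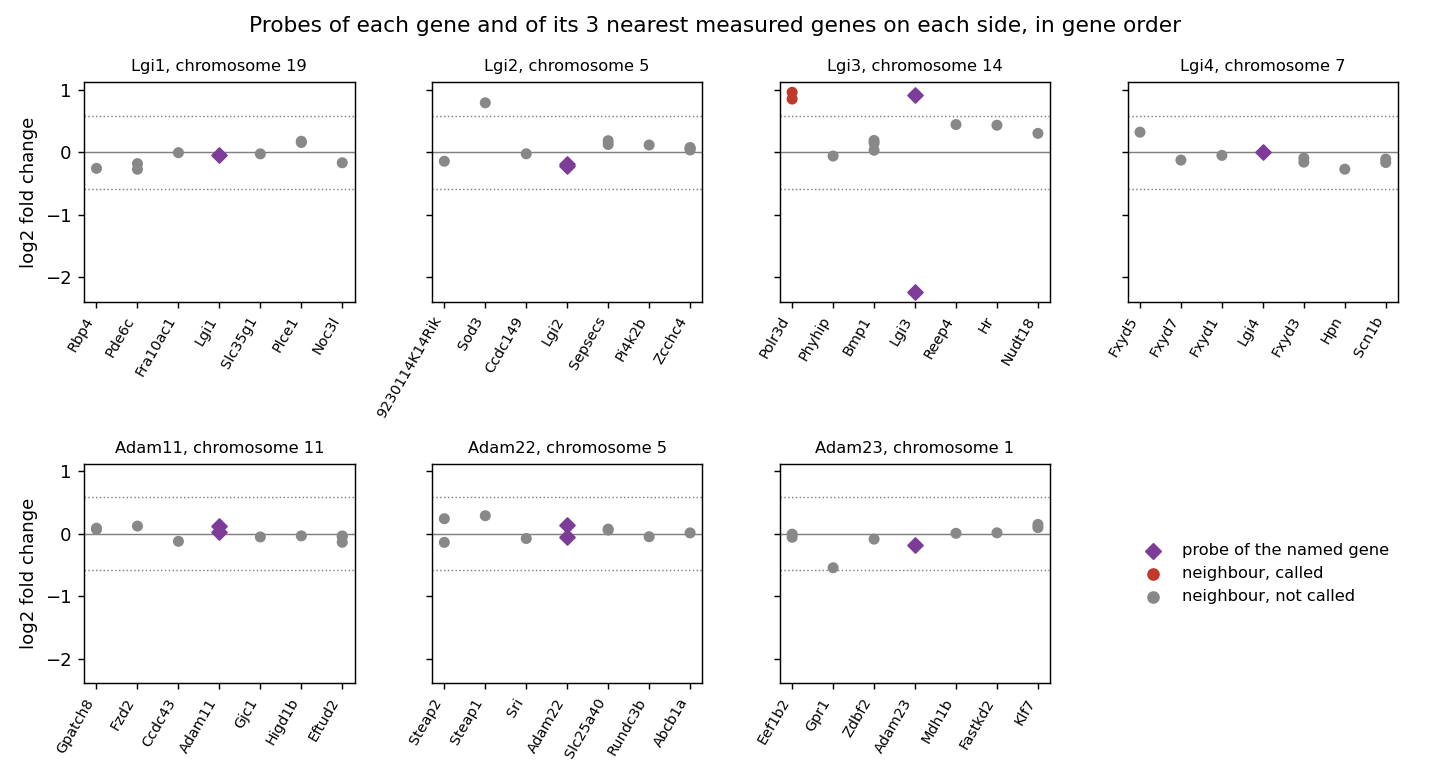
Log2 fold change (labelled Mrp4-null over WT) of the probes of each member (diamonds) and of the 3 nearest measured genes on each side (points), in gene order along the chromosome, with dotted lines at the 1.5-fold change. Both called neighbours are probes of Polr3d beside Lgi3, at 0.85 and 0.96, and the lone grey point past the line is Sod3 beside Lgi2, at 0.79.

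Genes with the profile most like that of each Lgi3 probe were found by the root mean square difference between normalized log2 values over the 8 arrays, after each probe's own mean was subtracted. Since the Lgi3 probes were chosen for their difference between the genotypes, the genes nearest to them share that difference by construction. For the transcript probe the nearest were 2610005L07Rik (0.136), Cdh11 (0.139), Tnpo2 (0.164), Sod3 (0.169) and Ccl17 (0.177). Sod3 lies on chromosome 5 and the other 4 on chromosome 8, the chromosome with the highest share of called probes. For the cDNA probe the nearest were Kbtbd11 (0.283), Cldn10 (0.299), Lrrc8e (0.301), Rnf150 (0.325) and Nek3 (0.348). Cldn10 lies on chromosome 14 and the other 4 on chromosome 8.

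Markers of the cell types in which LGI and ADAM genes are known were read beside these results. Of 8 oligodendrocyte and myelin genes, 5 were well above background on all 8 arrays and Opalin on none, and their summed normalized signal was 4048 to 4623 under the Mrp4-null label and 4467 to 4924 in WT. Of 5 Schwann cell genes, 3 were above background on all arrays, with summed normalized signals of 2366 to 2704 against 1988 to 2343, which did not overlap and were higher under the Mrp4-null label. The 7 ganglion cell genes summed to 69008 to 71664 against 72905 to 81993, which did not overlap and were lower under that label, and limma called 0 of their 12 probes, with an unadjusted p under 0.05 for 2. The 10 lens genes, of which 9 were above background on all arrays, summed to 3071 to 23717 against 8577 to 51562, and all 10 had a difference below 0, with a median of -1.44. Limma called 0 of their 14 probes, 6 had an unadjusted p under 0.05, and the local pooled error test called all 14. Over the 12 marker lists limma called 0 of 100 probes changed, and the local pooled error test called 14, those of the lens. An unadjusted p under 0.05 was found for 16 of the 100, among them 6 of the lens and 4 of 14 of the bipolar cells, against 6.46% of all retained probes. The part of these markers in the values of Lgi3 and of Lgi2 was not tested.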

How the data were processed

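The authors deposited the scanner output of 8 one-color arrays, made with Agilent Feature Extraction 11.0.1.1, whose intensity values come with background and spatial trend already removed, flags for each spot and no normalization between arrays. The authors also deposited a table of intensity values that equals the mean processed signal per probe. Of 56605 probes, 32994 (58.3%) were named by matching their accession to a gene table of GRCm38.p6, and 1, the cDNA probe of Lgi3, through the study's list. The members, gene lists and tests were chosen with earlier results of these data known. Every member and its probes are named, with called genes and the largest rise and fall of each partner list, the 3 nearest measured genes on each side of Lgi3 and the 5 nearest profiles of each Lgi3 probe. 4930480K23Rik, Rtn4r, Kcna1 and Sod3 were added after their values had been seen.

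Controls and spots marked as outliers (78 to 143 per array) were left out, log2 signals were averaged per probe, and 37085 probes were kept, those that in either genotype were well above background wherever measured (at least 3 measured arrays, and 2 in the other genotype), and normalized by the quantile method. Between 66.0% and 69.9% of probes were well above background per array, and the number of arrays limits the precision. Genotypes were compared in R 4.3.3 with limma 3.58.1 (lmFit and eBayes), with Benjamini-Hochberg adjustment over all retained probes. The script was tested on simulated data. Other settings tried were cyclic loess, the 75th percentile as the scale, normexp with an offset of 50, other filters, outlier spots kept, the deposited table, a local pooled error test, which the methods name without its settings and which was written anew with bins of 0.01 of the values, a spline of 10 degrees of freedom and Benjamini-Hochberg adjustment, robust variances with an intensity trend, a block for the sample number, fits without each array, and no fold threshold. The value of 1 marker gene is not reported here.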

Additional observations from a re-analysis of the deposited data

Results flagged for a closer look

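In 4 of the 22 sets of 4 arrays (11 probes in each genotype), 1 array stood apart in normalized signal, with a ratio of its gap to the range of the set that passed Dixon's critical value. About 1 in 20 sets would pass by chance. For Lgi2 probe A_51_P361830 the third WT array was at 7.88 and the other 3 at 7.60 to 7.61 (ratio 0.947), and the third array labelled Mrp4-null was at 7.31 and the other 3 at 7.49 to 7.53 (ratio 0.830). For Adam11 probe A_55_P1962876 the third WT array was at 7.82 and the other 3 at 7.48 to 7.53 (ratio 0.847). For Adam22 probe A_55_P2028465 the second array labelled Mrp4-null was at 5.65 and the other 3 at 4.90 to 4.98 (ratio 0.898). The third WT array and the second array labelled Mrp4-null are the dimmest of their genotypes, with 75th percentiles of 514 and 497. The third array labelled Mrp4-null, at 725, is not among the dim ones. The part of the dimness in these values was not tested, beyond the fit without both of the dimmest arrays that is given below.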

How the results depend on the processing

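The 2 calls among the 11 probes became 1 under the shift to the 75th percentile, with no filter on dim probes, with the sample number as a replicate block and without both of the dimmest arrays, an alternative chosen after seeing the data, and ranged from 1 to 2 when each array was left out. Calls over all probes were 71 with the replicate block, 128 without both of the dimmest arrays and 117 to 188 with each array left out, of which 117, 129 and 131 were without WT arrays 4, 3 and 2 in that order, and calls among neighbouring probes were 0 with the block and 1 to 2 with each array left out. The deviations of same-numbered arrays had correlations of -0.290, -0.685, 0.034 and 0.409 for numbers 1 to 4. The labels do not say whether the numbers pair the samples, and these few correlations cannot settle it. The Lgi3 cDNA probe was at -1.5003 with normexp. Signs turned for differences near 0. For Lgi4 these were -0.0074 with the 75th percentile, -0.0051 with normexp and -0.11 to 0.063 with each array left out. Adam11 A_55_P1962876 was at -0.023 with normexp, -0.045 without both dimmest arrays and -0.13 to 0.13 with each array left out. Adam22 A_55_P2028465 was at -0.019 without both dimmest arrays and -0.044 to 0.21 with each array left out. Lgi1 ranged from -0.15 to 0.044 and Adam22 A_55_P2028474 from -0.15 to 0.066 with each array left out. Calls in both partner lists were 0 in every alternative. Naming probes by a symbol column was not run, because the scanner files hold none. All 11 probes were well above background on all 8 arrays, and how the signal limits the smallest change that could be seen was not tested.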
